A study of Mus musculus with 7 samples.

Results

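Gpr4, Gpr65 and Gpr132 are G protein-coupled receptors of a small family that responds to protons outside the cell. The members were taken by name, and all 3 were found among the 23930 genes of the deposited table. None of them passed the test between normocapnia and hypercapnia, which 2.57% of all genes did. In none were the 2 groups free of overlap, beside 7.72% of all genes averaging 1 RPM (reads scaled to a common library total) or more. Gpr65 and Gpr132 were measured on 66 to 2118 reads per library, whereas Gpr4 rested on 2 to 24.

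Receptors of this family carry histidines on their outer face that take up protons when the surroundings turn acidic, and the receptor then signals through G proteins inside the cell. Gpr65 mainly raises cyclic AMP and is best known from macrophages and lymphocytes. Gpr132 is found on macrophages and lymphocytes as well, and it is usually described as a receptor for oxidized fatty acids and lysolipids with weaker proton sensing. Gpr4 is best known from endothelium. Dissolved CO2 forms carbonic acid, so raised CO2 and proton load are linked in tissue fluids, which is why these receptors are of interest in a hypercapnia study. The pH around the sorted cells is not part of the data.

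The libraries came from GFP-positive cells sorted from the hind leg muscles of inducible Pax7-GFP reporter mice, 3 libraries from normocapnia (NC1 to NC3) and 4 from hypercapnia (HC1 to HC4). In this line the Pax7 gene, which marks satellite cells, drives a tamoxifen-activated Cre that turns the reporter on for good, so descendants of Pax7-expressing cells stay labeled whatever they express later. All mice were C57/B6 littermates given tamoxifen from 12 weeks of age and kept in their condition for 4 weeks, until 16 weeks of age. The genotype labels run from C57BL/6 for NC1 upward by a single step per library to C57BL/12 for HC4. According to the methods, hypercapnia was a chamber with 10% CO2, normocapnia was room air, and muscles of both groups had been injured with cardiotoxin 3 days before collection; the sample labels do not mention the injury, and the title of the deposited table carries a time of 40 hours that neither explains. Whether each library is a single mouse is not stated, so the p-values measure the spread between these libraries.

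Values are RPM, the reads of a gene scaled to a common library total, from a panel with 1 amplicon per gene. They are listed in the order NC1, NC2, NC3 and then HC1, HC2, HC3, HC4. A level therefore compares a gene between libraries and not genes with each other, and no order of abundance among the receptors is given. Whole reads were recovered for 100% of values, with totals of 14527445 to 23388710 reads per library, and 3 reads, taken as the floor, stood for 0.128 to 0.207 RPM. Against the label of the sorted cells, Pax7 itself stood at 268.3, 8.25 and 4.34 RPM in normocapnia and 21.5, 20.1, 79.5 and 59.6 RPM in hypercapnia, while macrophage markers were abundant in all 7 libraries. The hypercapnia libraries fell into 2 close pairs, HC1 with HC2 and HC3 with HC4, whose reads differed by a chi-square per gene of 22.5 and 26.0, while all other pairs of libraries differed by 98.5 or more. The labels do not say whether the libraries of a pair share animals, and the SDs and p-values below count them as 4. NC3 stood apart in several genes below, and values without it are given for the receptors and the main signaling genes. In bulk samples fewer cells of a type and less RNA per cell cannot be told apart. Differences were tested with limma on log2(RPM + 1), and a gene was called at an unadjusted p under 0.05 with a fold change above 1.5. By this rule 2.57% of all genes were called, 1.43% as higher and 1.14% as lower in hypercapnia. Among genes averaging 1 RPM or more the share was 4.75%, with 2.66% higher and 2.1% lower. Their median log2 fold change was 0.16 as reported here, 0.04 under median-of-ratios scaling and -0.07 without NC3. After Benjamini-Hochberg adjustment limma called 0 of 23930 genes (1114 had an unadjusted p under 0.05), edgeR 0 (806 with its filter) and DESeq2 28. Fold changes are hypercapnia over normocapnia, and their log2 values understate the change of genes near or below 1 RPM.

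Gpr65 stood at 24.3, 22.8 and 5.51 RPM in normocapnia. In hypercapnia it stood at 34.9, 33.7, 21.7 and 19.5 RPM. The groups overlapped, since HC3 and HC4 lay below NC1 and NC2, and NC3 was the lowest of the 7 libraries. On the log2 scale the means were 3.98 ± 1.11 (SD, n = 3) in normocapnia and 4.79 ± 0.41 (SD, n = 4) in hypercapnia, a difference of 0.81 (SE 0.56, limma adjusted p = 0.915). The 95% interval of the difference, -0.59 to 2.21, takes in a fall as well as a rise beyond the fold threshold. An exact two-sided permutation test gave p = 0.257, where 0.0286 is the smallest that 3 against 4 libraries allow. Without NC3 the difference was 0.17 (limma adjusted p = 1).

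Gpr65 was read 545, 534 and 80 times in normocapnia and 816, 671, 348 and 288 times in hypercapnia. Exact Poisson intervals at 95%, which cover counting error only because the PCR reads carry no molecular identifiers, ran from 4.37 to 6.85 RPM in NC3 and from 32.6 to 37.4 RPM in HC1. In the order of levels, the intervals of HC1 and HC2 overlapped, as did those of NC1, NC2 and HC3, and that of HC3 with HC4. NC3 lay below all other libraries by more than counting error.

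Gpr132 showed the widest spread of the 3 receptors within normocapnia. Its levels were 53.7, 90.6 and 4.54 RPM in normocapnia. Its levels in hypercapnia were 35.6, 30.2, 54.1 and 47.8 RPM. All 4 hypercapnia libraries thus fell between NC3 and NC2, and the highest and the lowest library of the series were both from normocapnia, 19.9-fold apart on the RPM scale, against 1.79-fold between the extremes of hypercapnia. The log2 means were 4.92 ± 2.15 (SD, n = 3) and 5.39 ± 0.38 (SD, n = 4), a difference of 0.47 (SE 1.01, 95% interval -2.06 to 3.0, limma adjusted p = 0.98). The exact two-sided permutation test gave p = 0.829.

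The direction of Gpr132 changed with the analysis. Mean RPM was 49.6 ± 43.2 (SD, n = 3) in normocapnia and 41.9 ± 10.9 (SD, n = 4) in hypercapnia, so the arithmetic means lay in the opposite order to the log2 means. Models of the recovered reads put it lower in hypercapnia, at -0.24 in edgeR and -0.26 in DESeq2 on the log2 scale. Without NC3 the limma difference was -0.76 (adjusted p = 0.856), and without NC2 it was 1.27 (adjusted p = 0.863). Its read counts, 66 in NC3 and 602 to 2118 in the other 6 libraries, leave little counting error beside that spread.

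Gpr4 was near the limit of detection. It was read 24, 15 and 12 times in normocapnia, and 2, 4, 23 and 12 times in hypercapnia. These reads stand for 1.07, 0.641 and 0.826 RPM in normocapnia and 0.086, 0.201, 1.44 and 0.812 RPM in hypercapnia. HC1 lay below the floor of 0.128 RPM and HC2 close to its own floor of 0.151 RPM, while HC3 was the highest of all libraries. The log2 means were 0.88 ± 0.17 (SD, n = 3) and 0.63 ± 0.54 (SD, n = 4), a difference of -0.25 (SE 0.31, 95% interval -1.03 to 0.54, limma adjusted p = 0.915, exact permutation p = 0.429). The difference was -0.81 with a pseudocount of 0.1 RPM, -0.60 in edgeR, -0.65 in DESeq2 and -0.59 with quantile normalization, and Gpr4 was called in none of these. Its mean of 0.725 RPM placed it under a filter at a mean of 1 RPM, which Gpr65 and Gpr132 passed. The counting intervals of HC3 (0.911 to 2.16 RPM) and HC1 (0.0104 to 0.309 RPM) did not overlap, so the spread within hypercapnia was larger than counting error.

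**Figure D1:**
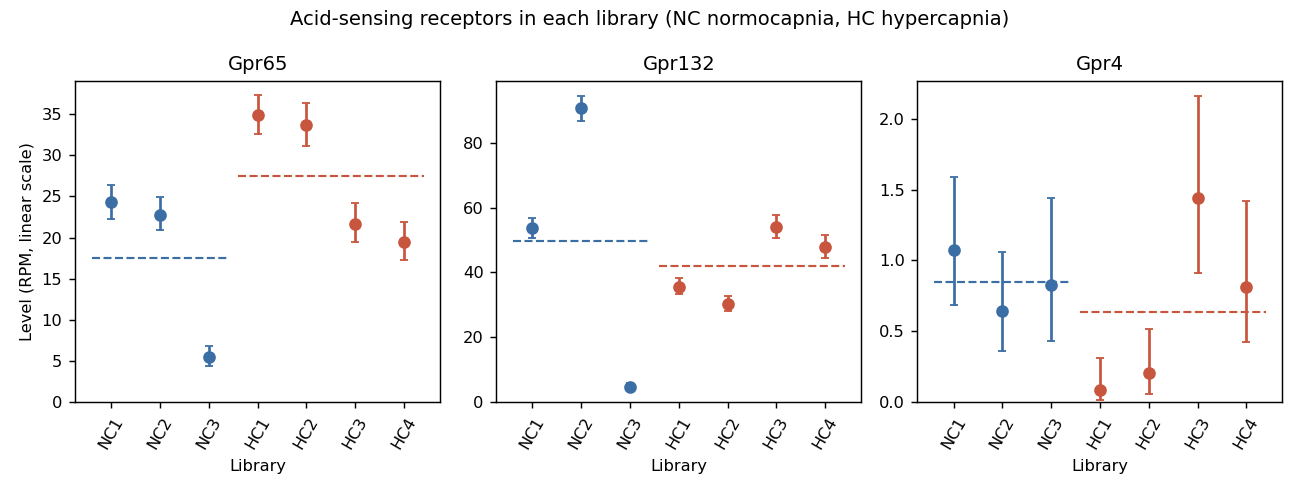
Level of each receptor in RPM on linear axes that start at 0, in the 3 normocapnia (blue) and 4 hypercapnia (red) libraries. Points are single libraries, bars are exact 95% Poisson intervals of the reads, and dashed lines are group means of RPM. NC3 is lowest for Gpr65 (5.51 RPM) and Gpr132 (4.54 RPM), and HC1 and HC2 are lowest for Gpr4 (0.086 and 0.201 RPM).

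**Figure D2:**
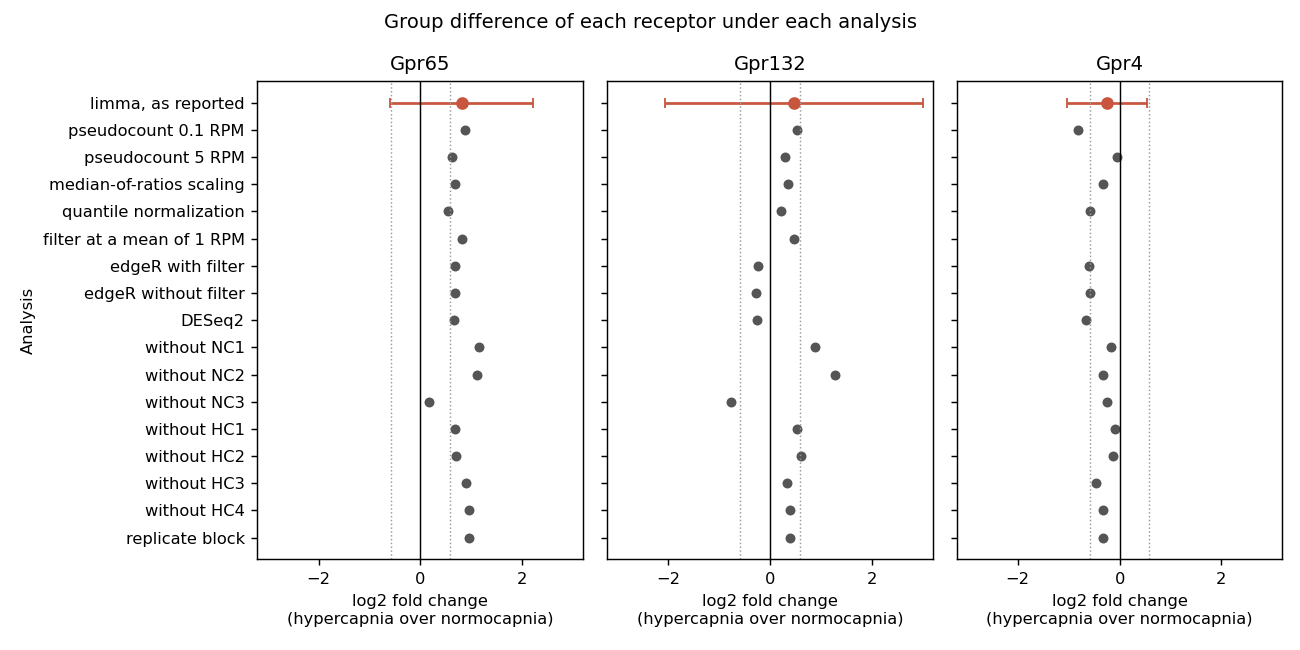
Log2 fold change of Gpr65, Gpr132 and Gpr4 (x axis) under each analysis (y axis). The red point and bar are the limma difference and its 95% interval, gray points are the alternatives, and dotted lines mark a fold of 1.5 in either direction. Gpr132 crosses 0 in edgeR, in DESeq2 and without NC3 (-0.76), Gpr65 falls to 0.17 without NC3, and Gpr4 has no point under the filter at a mean of 1 RPM.

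Over the 7 libraries, where both genes of a pair are read from the same library with its own depth and cell makeup, Gpr65 and Gpr132 had a Pearson's r of 0.76, with NC3 lowest in both, while Gpr4 had an r of -0.44 with Gpr65 and 0.09 with Gpr132. The positive r of Gpr65 and Gpr132 rested on NC3, since over the other 6 libraries it was -0.69, and for Gpr4 it was then -0.85 with Gpr65 and 0.57 with Gpr132. Correlations without NC3 were added after the values were seen. Within hypercapnia, HC1 and HC2 had the higher values of Gpr65 (34.9 and 33.7 RPM against 21.7 and 19.5 RPM in HC3 and HC4), while HC3 and HC4 had the higher values of Gpr132 and of Gpr4. The ratio of Gpr65 to Gpr132, taken as the difference of their log2 values in the same library, was -1.11, -1.94 and 0.23 in normocapnia and -0.03, 0.15, -1.28 and -1.25 in hypercapnia. It overlapped between the groups (difference 0.34, exact permutation p = 0.686, and 0.686 adjusted over the 3 pairs of receptors). For Gpr4 to Gpr65 the difference was -1.05 (exact permutation p = 0.286, adjusted 0.686), and for Gpr4 to Gpr132 it was -0.71 (exact permutation p = 0.657, adjusted 0.686). Without NC3 the differences of the 3 ratios were 0.93, -0.42 and 0.51 in the same order, and without NC2 that of Gpr65 to Gpr132 was -0.16.

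Since these receptors are known from leukocytes and endothelium, their levels were set beside markers of such cells in the same library. The 14 macrophage markers, among them Lyz2 (8353.6 to 29107.7 RPM) and Cd68, summed to 12531.2 to 35783.4 RPM in normocapnia and 20459.1 to 25535.2 RPM in hypercapnia, with no marker at 0 throughout. Of the 13 averaging 1 RPM or more, 8 were higher and 5 lower in hypercapnia, with a median log2 difference of 0.37. By limma Adgre1 (1.31, SE 0.49, adjusted p = 0.915) and Ms4a7 (1.52, SE 0.44, adjusted p = 0.909) were called as higher, 15.4% of the 13 beside 4.75% of all such genes. NC3 had the highest sum of macrophage markers and the lowest Gpr65 and Gpr132. On the mean of their log2 values, which gives each marker equal weight, NC3 stood at 7.55, between NC1 (7.31) and HC3 (7.66). Gpr65 minus that mean was -2.64, -3.75 and -4.85 in normocapnia and -3.27, -3.29, -3.15 and -3.50 in hypercapnia. The hypercapnia libraries were close together (SD 0.15) and lay inside the range of normocapnia (SD 1.10), and differed by 0.45 (exact permutation p = 0.6, and 0.9 adjusted over the 3 comparisons with markers). Without NC3 the value was -0.10. The part of macrophages in the level of Gpr65 was not tested.

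Gpr132 minus the macrophage markers was -1.53, -1.81 and -5.08 in normocapnia and -3.24, -3.44, -1.87 and -2.25 in hypercapnia. All 4 hypercapnia libraries again lay between NC3 and the other normocapnia libraries (difference 0.11, exact permutation p = 0.971, adjusted 0.971). Without NC3 the difference was -1.03 (exact permutation p = 0.133, where 0.0667 is the smallest possible), with both remaining normocapnia libraries above all 4 of hypercapnia. T and NK cell markers, of cells known to carry both receptors, summed to 3.92 to 17.1 RPM in normocapnia and 12.4 to 18.3 RPM in hypercapnia over 11 genes. The part of lymphocytes in the receptor levels was not tested.

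The 12 endothelial markers, among them Pecam1 and Cdh5, which hold endothelial cells together, summed to 95.6 to 279.4 RPM in normocapnia. In hypercapnia they summed to 87.4 and 69.7 RPM in HC1 and HC2, and to 666.9 and 496.0 RPM in HC3 and HC4. Gpr4 was likewise low in HC1 and HC2 and higher in HC3 and HC4. Gpr4 minus the mean log2 value of these markers was -2.13 ± 0.88 (SD, n = 3) in normocapnia and -2.94 ± 0.89 (SD, n = 4) in hypercapnia, and differed by -0.81 (exact permutation p = 0.286, adjusted 0.857). The difference was -0.31 without NC3 and -1.49 with a pseudocount of 0.1 RPM (exact permutation p = 0.0571, unadjusted). Over the 7 libraries Gpr4 had an r of 0.71 with the endothelial markers and of -0.83 with the macrophage markers, beside 0.72 with the dendritic cell markers and 0.72 with the neutrophil markers. Without NC3 these were 0.92, -0.85, 0.84 and 0.85. For Gpr132 r was 0.25 with the macrophage markers, 0.87 with the fibro-adipogenic and 0.74 with the myofiber markers, and -0.25, 0.55 and 0.56 without NC3. For Gpr65 it was 0.55 with the macrophage and 0.67 with the T and NK cell markers, and 0.61 and -0.23 without NC3. With the fibro-adipogenic and endothelial markers Gpr65 had an r of 0.55 and 0.18, and of -0.92 and -0.88 without NC3. Of all marker lists only the macrophage markers had a positive r with Gpr65 without NC3. The part of endothelial cells in the level of Gpr4 was not tested.

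**Figure D3:**
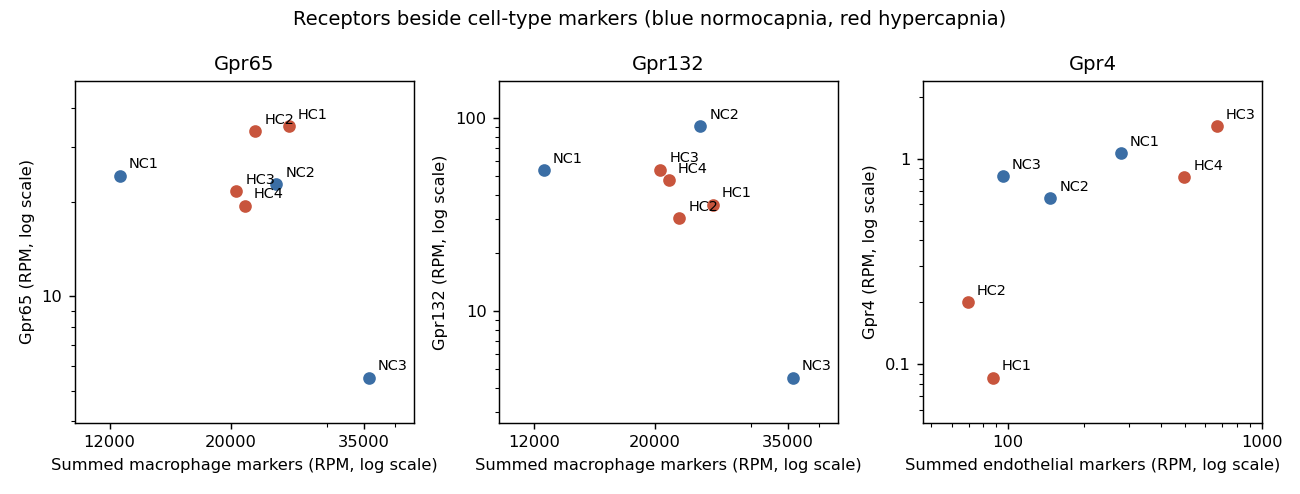
Level of Gpr65 and Gpr132 against the summed macrophage markers, and of Gpr4 against the summed endothelial markers, in RPM on log axes. Each point is a library, blue for normocapnia and red for hypercapnia. NC3 combines the highest macrophage sum (35783.4 RPM) with the lowest Gpr65 and Gpr132. Lyz2 made up 29107.7 RPM of that sum. On the mean log2 value of the markers NC3 stood at 7.55, between NC1 (7.31) and HC3 (7.66). HC1 and HC2 combine the lowest endothelial sums (87.4 and 69.7 RPM) with the lowest Gpr4.

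The genes most like each receptor were ranked by Pearson's r of log2(RPM + 1) over the 7 libraries, among 8229 genes averaging 10 RPM or more. Each gene and receptor were read from the same library, with its own depth and cell makeup, so the names are a description. Nearest to Gpr65 were Sirpa (r = 0.997) and Clec12a (r = 0.996), both inhibitory receptors of myeloid cells, and Acox3 (r = 0.994), a peroxisomal oxidase. Sirpa stood at 1122.3, 1167.7 and 294.2 RPM in normocapnia and 1559.2, 1673.1, 995.8 and 945.5 RPM in hypercapnia, and thus shared the low NC3 and the higher HC1 and HC2 of Gpr65. Nearest to Gpr132 were Ncdn (r = 0.988), Abca7 (r = 0.987), a lipid transporter, and Zfp12 (r = 0.986). Abca7 stood at 23.7, 34.4 and 7.78 RPM in normocapnia and 19.5, 18.1, 22.9 and 26.5 RPM in hypercapnia, with the same high NC2 and low NC3. For Gpr4 the nearest were Rpp14 (r = 0.978), Il6st (r = 0.977), which carries the signal of the interleukin 6 family, and Magi1 (r = 0.972), a scaffold of cell junctions. Gpr4 itself rested on 2 to 24 reads per library.

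Proton-sensing receptors are not the only route by which acid or CO2 can be sensed. A further list held 26 gene names for such sensors, with Pacc1 as a second name of Tmem206. Of these, 23 were in the table and 9 averaged 1 RPM or more. None of the 23 was called. Of the 9, 7 were higher and 2 lower in hypercapnia, with a median log2 fold change of 0.49, beside 0.16 for all genes at that level. Without NC3 the split was 5 higher and 4 lower and the median 0.11, beside -0.07 for all genes. Hvcn1, the voltage-gated proton channel of phagocytes, stood at 83.7, 116.9 and 6.95 RPM against 137.1, 139.0, 71.3 and 99.6 RPM. NC3 was again far below the rest and the other libraries overlapped (log2 difference 1.34, SE 1.01, limma adjusted p = 0.915, exact permutation p = 0.2). Without NC3 the difference was 0.12. Tmem206, the acid-activated chloride channel, had a difference of 0.62 (SE 0.41) that was 0.14 without NC3, and Kcnk5, a potassium channel that acid closes, one of 0.84 (SE 0.60) that was 0.60 without NC3. Ptk2b, a kinase that responds to acid in kidney cells, differed by 0.03 (SE 0.15). The acid-sensing sodium channels Asic1 to Asic3 had means of 0.0336 to 0.135 RPM, and Kcnk9 was at 0 in all libraries; these were named after their values were seen.

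Inside the cell these receptors hand their signal to G proteins. Of 28 genes for G protein subunits 25 were in the table and 0 were called. Gnas, which encodes the stimulatory alpha subunit through which cyclic AMP is raised, was not found under that name and could not be analysed. Among the 18 averaging 1 RPM or more, 9 were higher and 9 lower, beside 7765 and 4739 of all genes at that level. Without NC3 the split was 6 higher and 12 lower, beside 5432 and 7072. Gnai2, whose product lowers cyclic AMP, was at 1842.6, 3275.6 and 706.7 RPM against 3145.0, 4077.2, 2180.5 and 2626.2 RPM, with NC3 lowest and the other libraries overlapping (log2 difference 0.85, SE 0.56, and 0.25 without NC3). Gnai3 was lower without overlap, at 139.9, 147.8 and 209.5 RPM against 137.7, 120.1, 121.7 and 119.0 RPM, but stayed under the fold threshold (log2 difference -0.39, SE 0.15, limma p = 0.0499, adjusted p = 0.915, exact permutation p = 0.0286). Without NC3 the difference of Gnai3 was -0.21. Gnb1 and Gng12 differed by -0.25 (SE 0.25) and -0.54 (SE 0.26), and without NC3 by -0.04 and -0.25.

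The 7 lists of sensors, signaling arms, target genes and related receptors held 178 gene names, of which 167 were in the table. Some of the others are second names of genes counted among the 167, such as Mrtfa for Mkl1 and Grk2 for Adrbk1. Of the 167 genes limma called 6, 2 higher and 4 lower. That is 3.59%, beside 2.57% of all genes. Of the 130 genes averaging 1 RPM or more it was 4.62%, beside 4.75% of all such genes, so the share was near the background. The share was above the background in other settings, with 5.39% beside 2.55% under median-of-ratios scaling, where 6 were higher and 3 lower, and 7.69% beside 4.46% when limma was fitted after the filter at a mean of 1 RPM. The count rose to 20 without NC1, when 13 were higher and 7 lower, 12% beside 8.32% of all genes. Groups did not overlap for 14 of the 130 genes (10.8%, beside 7.72% of all genes at that level), and 8 of the 14 belonged to the 33 such genes of the cyclic AMP arm (24.2%).

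The cyclic AMP arm, through which Gpr65 and Gpr4 signal, held 3 of the 6 called genes among its 38, or 7.89% beside 2.57% of all genes, and 9.09% beside 4.75% among genes averaging 1 RPM or more. Adcy7, an adenylyl cyclase typical of blood cells, was higher, at 206.2, 196.0 and 107.2 RPM in normocapnia against 335.0, 386.9, 249.0 and 322.6 RPM in hypercapnia. All hypercapnia libraries lay above all of normocapnia (log2 difference 0.97, SE 0.28, limma p = 0.016, adjusted p = 0.909, exact permutation p = 0.0286). Crtc2, a coactivator that brings the factor CREB to its targets, was lower, at 102.4, 101.5 and 141.6 RPM against 54.3, 58.2, 78 and 70.1 RPM. Here too the groups were apart (log2 difference -0.81, SE 0.18, limma p = 0.00541, adjusted p = 0.752, exact permutation p = 0.0286). Both calls held under all 16 alternatives tried. Pde3b, which breaks down cyclic AMP, was lower, at 50.4, 67.6 and 112.9 RPM against 40.1, 43.2, 42.9 and 44.9 RPM (log2 difference -0.75, SE 0.27, limma p = 0.0342, adjusted p = 0.915, exact permutation p = 0.0286), but lost its call in 9 of the 16 alternatives. Its difference was -0.44 without NC3 and lay between -0.72 and -0.90 in the other 8.

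Other genes of this arm parted the groups without reaching the fold threshold or the p threshold. Creb1, the factor that cyclic AMP activates through protein kinase A, stood at 40.4, 44.4 and 35.5 RPM against 32.3, 29.4, 29.8 and 27.2 RPM. Its groups were apart by a narrow margin (log2 difference -0.42, SE 0.09, limma p = 0.00466, adjusted p = 0.729, exact permutation p = 0.0286). Crtc1 (-0.39, SE 0.13, and -0.44 without NC3) and Prkar2a (-0.38, SE 0.12, and -0.25 without NC3), a regulatory subunit of protein kinase A, also had lower values. Prkar1b (0.98, SE 0.41, and 0.55 without NC3), another such subunit, and Pkib (0.74, SE 0.32, and 0.71 without NC3), an inhibitor of the kinase, had higher values. These 4 were named after their values were seen. Prkar1a overlapped between the groups (0.40, SE 0.48, and -0.09 without NC3).

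Among 19 genes that cyclic AMP is known to switch on, 1 was called, or 5.88% of the 17 averaging 1 RPM or more beside 4.75% of all such genes. Areg, a ligand of the EGF receptor, was lower, at 12.7, 52 and 34.2 RPM in normocapnia against 9.76, 8.84, 7.93 and 3.79 RPM in hypercapnia. The groups were apart, though NC1 stood close to HC1 (log2 difference -1.84, SE 0.55, limma p = 0.0173, adjusted p = 0.909, exact permutation p = 0.0286). Its call was lost without NC2 (-1.42, limma adjusted p = 0.666), without NC3 (-1.71, limma adjusted p = 0.763) and with the replicate number as a block (-1.58, limma adjusted p = 0.934). Fos and Thbs1 overlapped between the groups (0.05, SE 0.28, and 0.42, SE 0.52), and without NC3 they differed by -0.24 and 0.05. The median of the 17 genes at 1 RPM or more was 0.01, and -0.41 without NC3.

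The phospholipase C and cytoskeletal arms, onto which receptors of this kind can also signal, held 1 called gene of 21, all averaging 1 RPM or more, or 4.76% beside 4.75%. Plcb2, a phospholipase of blood cells, was higher, at 29.8, 34.4 and 24.4 RPM against 60.6, 67.5, 45.9 and 46.2 RPM, with the groups well apart (log2 difference 0.87, SE 0.19, limma p = 0.00478, adjusted p = 0.729, exact permutation p = 0.0286). Its call held under all 16 alternatives. Itpr1, the calcium channel that phospholipase C opens through IP3, stood at 71.8, 51 and 10.4 RPM against 75.7, 89.4, 106.5 and 102.4 RPM, apart but not called (1.42, SE 0.67, limma p = 0.0815, adjusted p = 0.915, exact permutation p = 0.0286). Without NC3 the difference of Itpr1 was smaller, 0.61, and was called (limma adjusted p = 0.664). Rhob and Rock2 differed by 0.16 (SE 0.15) and 0.22 (SE 0.40), and without NC3 by 0.08 and -0.23.

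Among 20 genes that switch receptors off, 0 were called. Arrb2, an arrestin, differed by 0.30 (SE 0.09, limma p = 0.0206, adjusted p = 0.915, exact permutation p = 0.0857), under the fold threshold and with overlap. Rgs19 had the same difference (SE 0.12), and Rgs1 and Rgs2 differed by 0.32 (SE 0.41) and 0.33 (SE 0.18), and without NC3 by -0.07 and 0.13. Of 23 receptors for lysolipids and related lipids, the class to which Gpr132 is close in ligand, 1 was called, or 5.88% of the 17 averaging 1 RPM or more beside 4.75%. Ffar4, a receptor for long-chain fatty acids, was lower, at 2.23, 3.46 and 1.1 RPM against 0.086, 0.201, 0.437 and 0.948 RPM, with HC1 below the floor and HC2 close to it (log2 difference -1.17, SE 0.33, limma p = 0.0131, adjusted p = 0.877, exact permutation p = 0.0286), with a size that ranged from -0.41 and no call at a pseudocount of 5 RPM to -2.35 at 0.1 RPM and -2.63 in DESeq2. S1pr1, the receptor for sphingosine-1-phosphate, stood at 83.4, 63.6 and 15.9 RPM against 94, 97.8, 140.1 and 171.9 RPM, apart but not called (1.45, SE 0.62, limma p = 0.0615, adjusted p = 0.915, exact permutation p = 0.0286), and its difference was 0.74 without NC3. Lpar6 overlapped (-0.37, SE 0.41, and -0.08 without NC3).

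**Figure D4:**
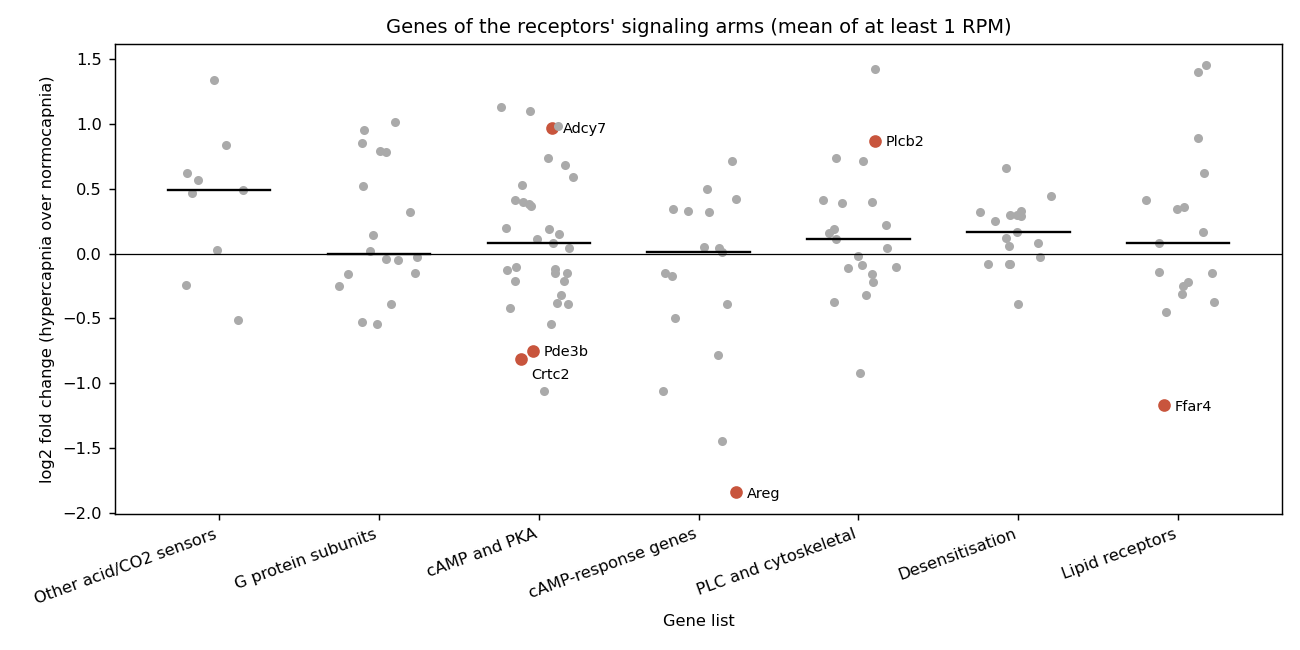
Log2 fold change of each gene averaging 1 RPM or more (y axis), by list (x axis). Gray points are genes not called, red points with names are genes called by limma, and black lines are list medians. The 6 called genes fall in 4 of the 7 lists, with Adcy7 and Plcb2 above 0 and Crtc2, Pde3b, Areg and Ffar4 below it, and the medians lie between 0 and 0.49.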

How the data were processed

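RNA of sorted Pax7-GFP cells was measured in 7 libraries, grouped by the treatment in the sample labels. The authors made Ion AmpliSeq Transcriptome Mouse libraries on an Ion Chef, sequenced them on an Ion GeneStudio S5 Plus and deposited a table of RPM, in which each library has the same total within rounding. The aligner and the build of the genome are not stated in the sources used here, and coordinates are left out. RPM steps gave whole reads for 100% of values within 0.05 reads, and the recovery, tested on simulated data, was right in 3 of 3 libraries. Of the 21 pairs of libraries none differed by as little as counting noise.

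The members and gene lists were chosen with earlier results of these data known. All genes, unfiltered, entered the main test on log2(RPM + 1), run with limma 3.58.1 under R 4.3.3. Single genes, ratios and levels relative to markers were also tested by exact permutation. Alternatives were quantile normalization or median-of-ratios scaling, a filter at a mean of 1 RPM, a pseudocount of 0.1 or 5 RPM, the replicate number as a block, omission of single libraries, and 2 models of whole reads, the quasi-likelihood test of edgeR 4.0.16 with TMM and DESeq2 1.42.0. Named were the members, the called genes, in each pathway list the 2 genes highest in RPM and the 2 lowest in p, the 3 genes most like each member, and 2 markers of each cell type, again by RPM, a rank used for naming and not as a level. Correlations carry no test. Protein sequences were not used here. Some items that the naming rule gives are not reported here.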

Additional observations from a re-analysis of the deposited data

Results flagged for a closer look

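Gnai3 in HC1 stood at 137.7 RPM while the other hypercapnia libraries lay between 119.0 and 121.7 RPM, and its gap to them was above the critical value of Dixon's test for 4 samples. In all 31 genes were tested in this way, and chance flags about 1 in 20 groups. No value of Gpr4, Gpr65 or Gpr132 in hypercapnia stood apart by this test, and the 3 normocapnia libraries are too few for it.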

How the results depend on the processing

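None of the 3 receptors was called under any alternative that gave a value. Gpr65 and Gpr4 kept their direction throughout, but Gpr4 had no value under the filter at a mean of 1 RPM. Gpr132 turned to -0.24 in edgeR, -0.27 in edgeR without a filter, -0.26 in DESeq2 and -0.76 without NC3. Leaving out each library moved Gpr65 between 0.17 and 1.15, Gpr132 between -0.76 and 1.27 and Gpr4 between -0.46 and -0.08. Relative to macrophage markers Gpr132 turned to -0.02 with a pseudocount of 5 RPM, and leaving out each library gave -1.03 to 0.75 for Gpr132, -0.10 to 1.0 for Gpr65, and -1.14 to -0.31 for Gpr4 relative to endothelial markers. The ratio of Gpr4 to Gpr132 ranged from -1.59 to 0.51, that of Gpr65 to Gpr132 from -0.16 to 0.93 and that of Gpr4 to Gpr65 from -1.43 to -0.42. The 6 genes called in the signaling lists were 10 with the filter (7.69% beside 4.46% of all genes), 11 in edgeR (8.09% beside 6.03%), 12 in edgeR without a filter (7.19% beside 4.38%), 14 in DESeq2 (8.38% beside 5.45%) and 5 to 20 as each library was left out. With quantile normalization the share was 5.39% beside 2.9%. All genes called were 615, against 1049 in edgeR without a filter, 1304 in DESeq2 and 376 to 1990 as each library was left out, with the extremes without HC2 and NC1. The cause of these shifts was not tested. Of all called genes 343 were higher and 272 lower, against 294 and 508 in edgeR and 519 and 785 in DESeq2. Quantile normalization moved the typical gene above 1 RPM to a log2 change of -0.01.

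The replicate numbers are not known to pair the libraries. Deviations from the group means correlated at -0.35 for NC1 with HC1, 0.50 for NC2 with HC2 and -0.04 for NC3 with HC3, and only NC2 correlated best with its own number. HC4 is the only library with its replicate number, so the block takes it out of the difference. With the replicate block the differences were 0.95 for Gpr65, 0.39 for Gpr132 and -0.32 for Gpr4, the same as without HC4. The block called 8 signaling genes, 4.79% beside 2.5% of all genes, and 4 of these were among the 6 reported. Areg (-1.58) and Pde3b (-0.78) lost their calls. In HC1 and HC2 Gpr4 and Ffar4 rest on few reads, so that differences of a few reads were not detectable.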

Other observations

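Some further cell types were summarised in the same way. Satellite cell markers (12 genes, among them Sdc4 and Des) summed to 655.2 to 4406.1 RPM in normocapnia and 832.5 to 1821.5 RPM in hypercapnia. Fibro-adipogenic markers (7 genes, among them Dcn and Col1a1) summed to 1021.1 to 1874.6 and 887.3 to 2343.2 RPM, and myofiber markers (8 genes, among them Tnnt3 and Mylpf) to 271.6 to 5026.3 and 392.4 to 2300.1 RPM. Dendritic cell markers (Itgax, Ccr7 and 6 others) summed to 60.1 to 354.7 and 66.4 to 210.0 RPM, neutrophil markers (Csf3r, S100a9 and 7 others) to 82.2 to 228.7 and 105.4 to 329.3 RPM, and B cell markers (Cd79b, Pax5 and 3 others) to 8.81 to 20.5 and 12.1 to 14.7 RPM. Of these lists only the neutrophil list had a called gene, Mmp8 (log2 difference 1.25, SE 0.30, limma adjusted p = 0.809), or 11.1% of its 9 genes beside 2.57% of all genes.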
